A study of Homo sapiens with 6 samples.

Results

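Histone deacetylases and the subunits of the complexes that carry them were followed in a human cell line infected with a lentivirus for an shRNA against FAM60A. Members were taken by name: 49 genes, made up of 18 deacetylase enzymes (the histone deacetylases and the sirtuins) and 31 subunits and partners of the SIN3, NuRD, NCOR and CoREST complexes, without SINHCAF itself. A member was measured through probe sets that the platform annotation gives a single gene symbol, which held for 48 members among 18132 genes. NCOR1 had 0 such probe sets and was not analysed here. A pair of groups was compared, called arrays labelled shFAM60A and arrays labelled shControl below. The first are labelled as TPC-1 cells, a line from papillary thyroid carcinoma, with lentivirus expressing an shRNA against FAM60A, and their genotype label reads FAM60A1 knockdown. The second are labelled as TPC-1 cells with lentivirus expressing a control shRNA, with the genotype control. Measurements that go against these labels are given before the results. Each group has 3 samples and 1 Affymetrix array per sample. All cells grew in RPMI1640 medium with serum. Neither the time after infection nor the number of shRNA sequences is given in the sources used here. No label says that the 3 samples of a group were cultured separately, so a p-value rests on the spread of these samples alone, and that spread may be technical.

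Deacetylases remove acetyl groups from lysines of histones and other proteins, which in general goes with lower transcription nearby. HDAC1 and HDAC2 act as the enzyme core of SIN3, NuRD and CoREST, and HDAC3 as that of NCOR. SIN3A and SIN3B are alternative scaffolds of the SIN3 complex, onto which SINHCAF, the protein that FAM60A encodes, assembles together with SAP30, SUDS3, ING and other subunits. NuRD joins deacetylation to an ATP-dependent remodeller, CHD3 or CHD4, while NCOR serves nuclear receptors and CoREST pairs the deacetylases with a histone demethylase.

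SINHCAF, the gene the shRNA names, ran against the labels. Its log2 values were 0.63, 0.57 and 0.60 in the arrays labelled shFAM60A, against -0.58, -0.66 and -0.68 in the arrays labelled shControl, which differ by 1.24 ± 0.038 in log2 (SE, n = 3 arrays each; limma, adjusted p = 1.08e-06). Every direction below is therefore one between labels and does not follow a measured loss of SINHCAF. The extraction protocol names DLD1, a colorectal line, although the titles name TPC-1. Of 10 colorectal epithelial markers, 6 rose in the arrays labelled shFAM60A (60.0%, beside 19.8% of all genes) and 0 fell (25.0% of all genes). A probe set in the highest level class, explained with the level classes below, was held by 4 of the 10. The summed log2 value of all 10 ran from 3.65 to 3.87 in the arrays labelled shFAM60A and from -4.06 to -3.75 in those labelled shControl. Of 9 thyroid follicular markers, 0 passed the test, beside 44.9% of all genes. In that list 19 of 28 probe sets lay in the lowest class, where probe sets without signal fall. The 9 summed to -0.13 to -0.0045 in the arrays labelled shFAM60A and 0.012 to 0.22 in the arrays labelled shControl. Of 5 leukocyte markers, 2 were higher, CD68 and CD79A (40.0%, beside 19.8% of all genes), and 0 lower. CD79A passed by its mean alone, with 0 of its 3 probe sets past the test. The 5 summed to 0.046 to 0.64 in the arrays labelled shFAM60A and -0.49 to 0.025 in those labelled shControl. Of 6 fibroblast markers, 0 passed, beside 44.9% of all genes. The 6 summed to -0.26 to 0.21 in the arrays labelled shFAM60A and -0.16 to 0.44 in those labelled shControl. What part cell identity has in the results below was not tested. In bulk RNA, fewer cells of a type and less RNA per cell cannot be told apart.

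The deacetylase machinery moved in both directions, by small amounts. Of the 48 measured members, 17 rose and 13 fell in the arrays labelled shFAM60A, and 18 did not pass the test (limma, adjusted p under 0.05 over all genes). That is 62.5% of the members, beside 44.9% of all genes. Members higher made up 35.4%, beside 19.8% of all genes, and members lower 27.1%, beside 25.0%. The median log2 difference over the members was 0.0073, against -0.012 over all genes. A level here is a log2 value relative to the median of the same probe set over the 6 arrays, so values compare arrays within a gene and not genes with each other. Sizes stayed below 2-fold: 0 members reached a log2 difference of 1 in size. The median size of a member that passed was 0.34, and the largest was 1.61-fold. A log2 difference of at least 0.5 in size was seen in 9 members that passed (18.8%, beside 9.59% of all genes), 5 higher and 4 lower. The 2 groups of arrays did not overlap in 36 members (75.0%, beside 53.2% of all genes).

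**Figure D1:**
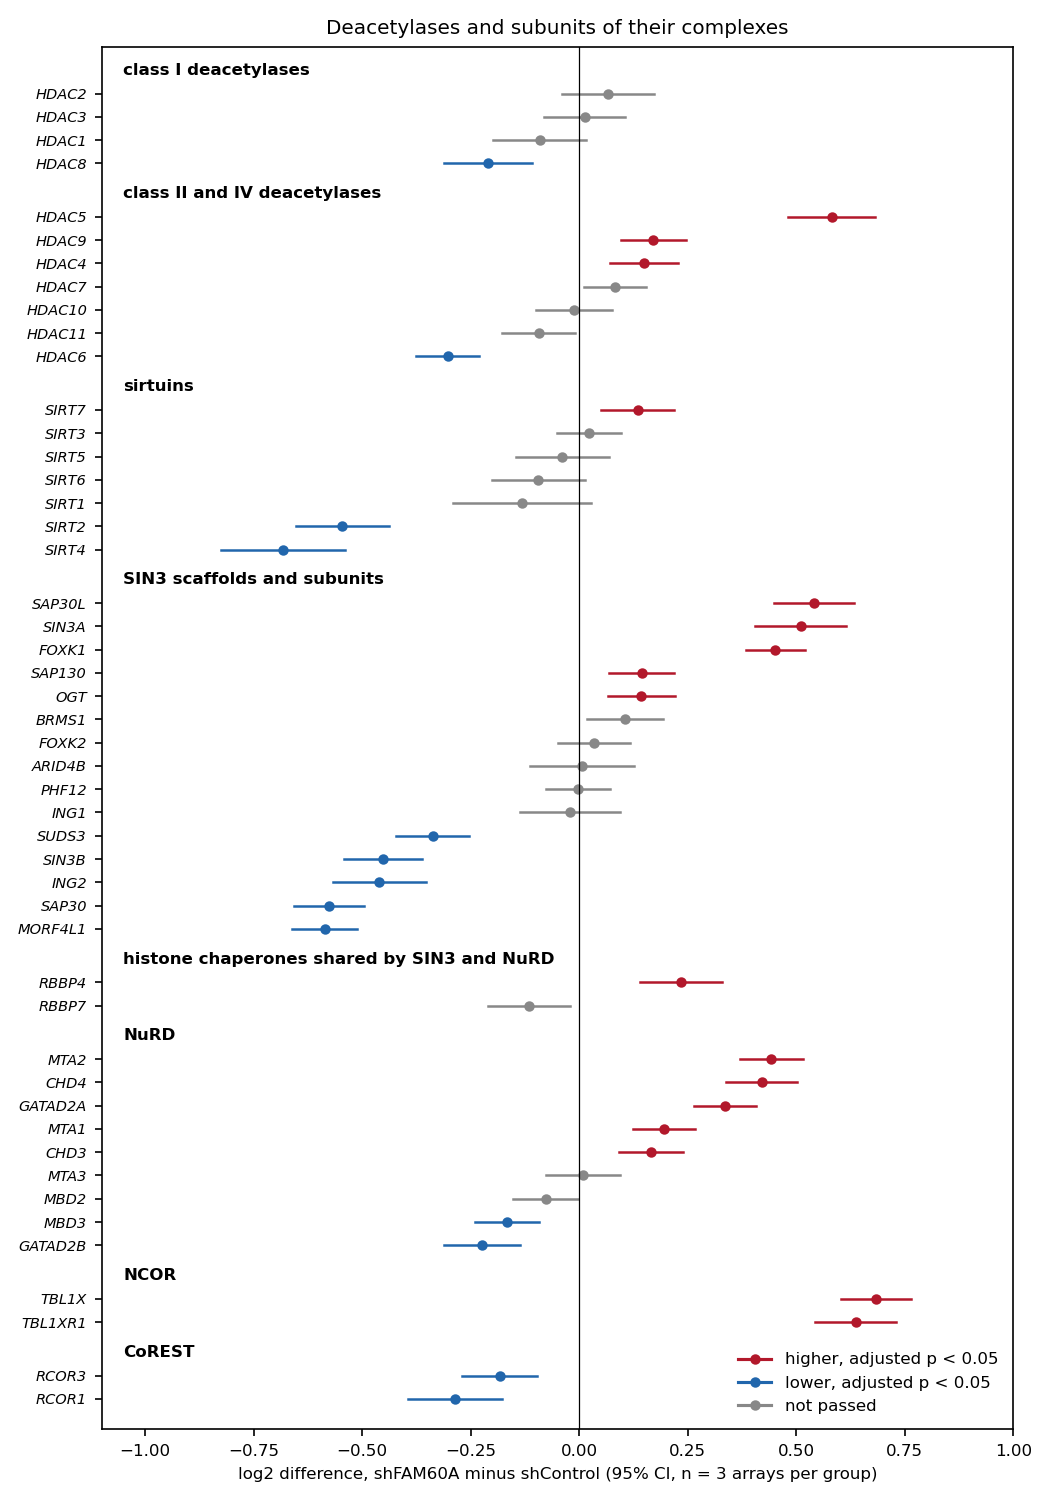
Log2 difference (arrays labelled shFAM60A minus arrays labelled shControl) of the 48 measured members by complex, with limma's 95% confidence interval, n = 3 arrays per group; red members passed higher, blue lower and grey did not pass. NCOR subunits lie at 0.64 and 0.68, CoREST subunits at -0.29 and -0.18, and SIN3 members on both sides of 0.

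The SIN3 complex, to which SINHCAF belongs, split between its subunits. Of 15 members, 5 rose, 5 fell and 5 did not pass, with a median log2 difference of 0.0067. The share past the test was 66.7%, beside 44.9% of all genes, with 33.3% higher and 33.3% lower, beside 19.8% and 25.0% of all genes. The scaffold SIN3A rose. It had log2 values of 0.19, 0.22 and 0.28 in the arrays labelled shFAM60A, against -0.32, -0.20 and -0.32 in the arrays labelled shControl. The groups differed by 0.51 ± 0.044 in log2 (SE, n = 3 arrays each; limma, adjusted p = 7.32e-05), and its 3 probe sets, from 0.26 to 0.70, all passed. The alternative scaffold SIN3B fell, with -0.27, -0.22 and -0.19 in the arrays labelled shFAM60A and 0.18, 0.25 and 0.26 in the arrays labelled shControl. Its difference was -0.45 ± 0.038 (adjusted p = 6.44e-05), with 5 of 6 probe sets past the test. For both scaffolds the groups were fully apart, in opposite order.

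SAP30 and SAP30L, paralogous adaptors that bridge the SIN3 scaffold and the deacetylases, also went opposite ways. SAP30L had 0.31, 0.21 and 0.26 in the arrays labelled shFAM60A, against -0.32, -0.28 and -0.24 in the arrays labelled shControl. SAP30 had -0.31, -0.26 and -0.25 in the arrays labelled shFAM60A, against 0.32, 0.27 and 0.32 in the arrays labelled shControl. No array of one label reached the values of the other in either gene. The differences were 0.54 ± 0.039 for SAP30L (adjusted p = 3.01e-05) and -0.58 ± 0.034 for SAP30 (adjusted p = 1.30e-05). The 3 probe sets of SAP30 all passed lower, from -0.94 to -0.26. Of the 4 of SAP30L, 3 passed higher, at 0.65 to 0.95, and 1 passed lower at -0.22, so the probe sets of this gene disagree.

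The start regions of SAP30L and SAP30 are printed because these paralogues, each with 1 listed start, moved apart. They run from 250 bases before to 50 after the start in RefSeq's GRCh38.p14, both on the plus strand, SAP30L at chr5:154445747-154446046 and SAP30 at chr4:173370704-173371003. Capitals mark matches on either strand to a GC box (GGGCGG) or a CCAAT box (CCAAT), other motifs searched having 0 matches here.
SAP30L: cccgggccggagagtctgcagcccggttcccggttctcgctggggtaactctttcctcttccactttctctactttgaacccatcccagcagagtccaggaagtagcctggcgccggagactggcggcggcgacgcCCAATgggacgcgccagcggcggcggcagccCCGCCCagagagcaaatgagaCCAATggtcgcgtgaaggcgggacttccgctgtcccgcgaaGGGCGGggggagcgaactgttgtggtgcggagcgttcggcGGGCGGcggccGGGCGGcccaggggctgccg
SAP30: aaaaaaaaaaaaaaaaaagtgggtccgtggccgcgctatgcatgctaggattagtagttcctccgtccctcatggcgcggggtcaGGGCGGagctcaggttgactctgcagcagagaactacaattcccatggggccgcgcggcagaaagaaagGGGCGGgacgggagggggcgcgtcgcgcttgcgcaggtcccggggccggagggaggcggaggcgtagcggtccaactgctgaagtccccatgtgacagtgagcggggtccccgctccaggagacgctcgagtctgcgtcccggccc

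The SAP30L window held 4 GC boxes and 2 CCAAT boxes, and the SAP30 window 2 GC boxes and 0 CCAAT boxes. Their G and C content was 69.7% and 64.0%, with 34 and 28 CpG steps. RefSeq windows were found for 46 of the 48 members, 72 windows in all since a gene can have several starts. A GC box lay in 72.2% of them and in 45.0% of all 35116 windows, and a CCAAT box in 37.5% and 34.6%. Among members that rose, 66.7% of 30 windows had a GC box and 36.7% a CCAAT box. Among members that fell, 70.6% of 17 windows had a GC box and 47.1% a CCAAT box. The other motifs searched, on both strands, were the E-box CACGTG (6.94% of member windows, 7.26% of all), the TATA box TATAAA (5.56% and 11.5%), the ETS core CCGGAAG (15.3% and 10.3%) and the forkhead core TGTTTAC (1.39% and 3.42%). These are matches of letters and show no binding.

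Other SIN3 subunits that fell did so in every probe set. MORF4L1, a chromodomain protein of SIN3 and of the TIP60 acetyltransferase complex, had -0.28, -0.27 and -0.30 in the arrays labelled shFAM60A and 0.33, 0.27 and 0.31 in the arrays labelled shControl. Its difference of -0.59 ± 0.032 (adjusted p = 8.66e-06) was the second largest fall among the members, and its 6 probe sets lay between -0.72 and -0.40. ING2, whose PHD finger reads methylated histone H3, had -0.19, -0.22 and -0.24 in the arrays labelled shFAM60A and 0.18, 0.33 and 0.22 in the arrays labelled shControl, with a difference of -0.46 ± 0.045 (adjusted p = 1.37e-04). SUDS3, a subunit that helps to hold HDAC1 in the complex, had -0.17, -0.17 and -0.11 in the arrays labelled shFAM60A and 0.23, 0.18 and 0.16 in the arrays labelled shControl. Its 3 probe sets stood at -0.34, -0.34 and -0.33. In all 3 genes the lowest array labelled shControl lay above the highest array labelled shFAM60A.

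FOXK1, a forkhead factor that recruits SIN3, rose with a difference of 0.45 ± 0.029 (adjusted p = 1.89e-05). Its values were 0.25, 0.22 and 0.21 in the arrays labelled shFAM60A and -0.22, -0.23 and -0.22 in the arrays labelled shControl, with the smallest SE of the members. Its 2 probe sets passed at 0.64 and 0.26. Its paralogue FOXK2 averaged to 0.034 (adjusted p = 0.496), and its 2 probe sets passed in opposite directions, at 0.36 and -0.29. SAP130, a large subunit of the complex, rose by 0.14 on the log2 scale (adjusted p = 0.00813), and so did OGT, the O-GlcNAc transferase that binds SIN3A, by 0.14 (adjusted p = 0.00901). SAP130 had 1 of 2 probe sets past the test and OGT 2 of 5. OGT lost its call with the median of its probe sets (0.080, adjusted p = 0.128). ING1 (-0.021), PHF12 (-0.0023) and ARID4B (0.0067) did not pass, with adjusted p from 0.779 to 0.964. For PHF12 and ARID4B the mean near 0 joins probe sets that disagree. Of the 4 probe sets of PHF12, from -0.24 to 0.20, 1 passed lower. Of the 5 of ARID4B, from -0.10 to 0.25, 1 passed higher. BRMS1, a suppressor of metastasis in the complex, had 0.11 (adjusted p = 0.0528). It passed in 4 of 15 other settings, among them all 3 other scalings of the arrays, at 0.12 to 0.13.

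**Figure D2:**
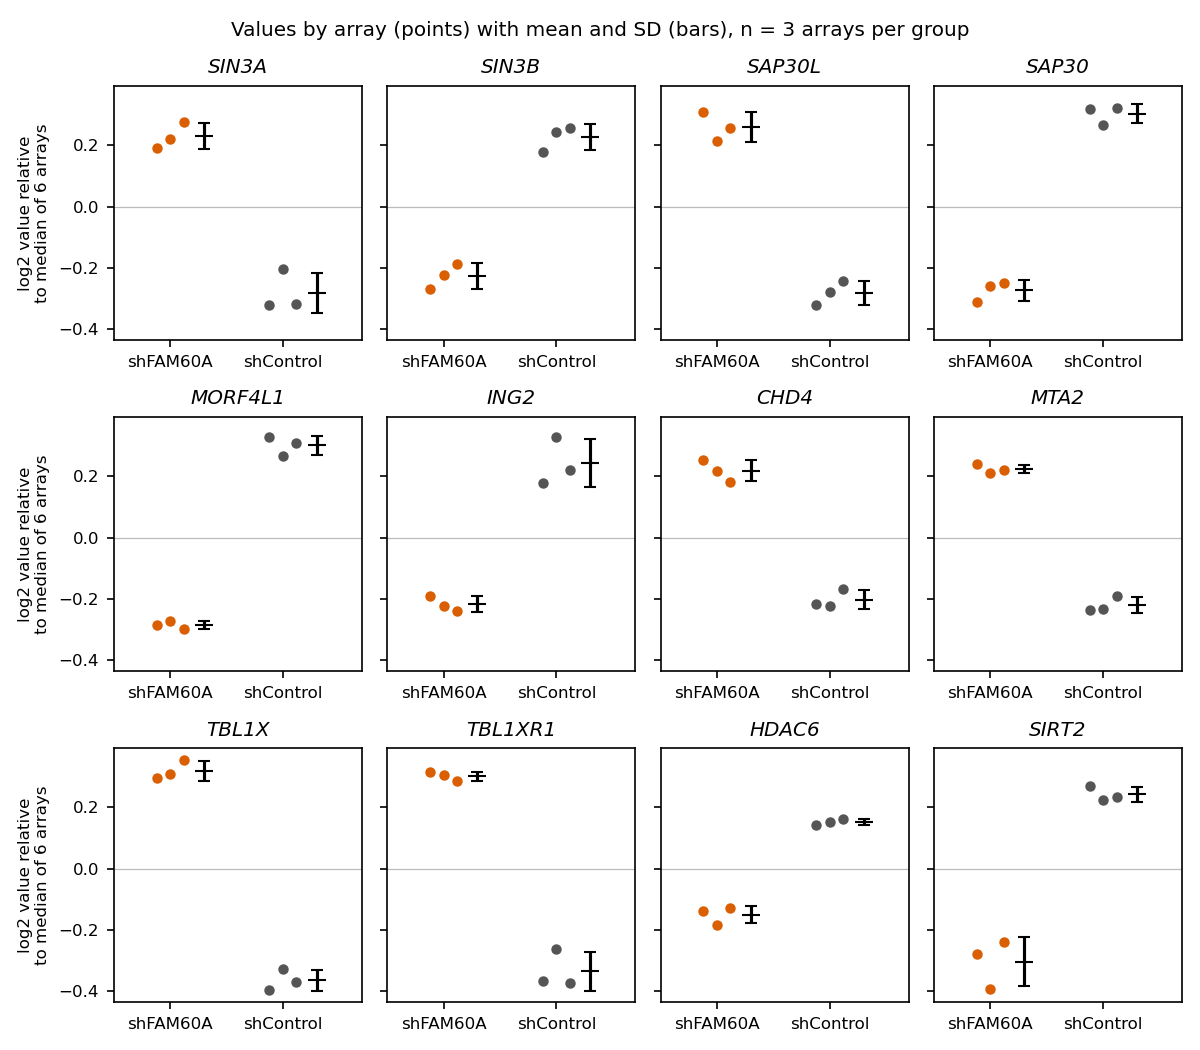
Log2 value relative to the median of the 6 arrays for 12 members that passed, in each array (points) with the mean and SD of its group (bars), n = 3 arrays per group. SIN3A, SAP30L, CHD4, MTA2, TBL1X and TBL1XR1 lie above 0 in the arrays labelled shFAM60A and below it in the arrays labelled shControl, and the other 6 the reverse.

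RBBP4 and RBBP7, WD40 proteins that chaperone histones and serve SIN3 and NuRD alike, did not share a call. RBBP4 rose, with 0.051, 0.14 and 0.12 in the arrays labelled shFAM60A and -0.078, -0.16 and -0.15 in the arrays labelled shControl, a difference of 0.23 ± 0.040 (adjusted p = 0.00226). Its 2 probe sets stood at 0.52 and -0.048, so the call rested on 1 of them. RBBP7 had -0.12 through its single probe set and did not pass (adjusted p = 0.0528), though its groups did not overlap. Without the first array labelled shFAM60A its difference was -0.15 and passed (adjusted p = 0.0218).

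Of the 9 NuRD members, 5 rose, 2 fell and 2 did not pass, and the median log2 difference was 0.17. That is 77.8% past the test, beside 44.9% of all genes, with 55.6% higher (19.8% of all genes) and 22.2% lower (25.0% of all genes). The remodelling ATPase CHD4 had 0.25, 0.22 and 0.18 in the arrays labelled shFAM60A and -0.22, -0.22 and -0.17 in the arrays labelled shControl, a difference of 0.42 ± 0.035 (adjusted p = 5.70e-05). All 3 of its probe sets passed, from 0.38 to 0.48. CHD3, the alternative ATPase, rose by 0.17 (adjusted p = 0.00381). Of its 5 probe sets, from 0.028 to 0.34, 2 passed. Among the MTA proteins, which recruit the deacetylases to NuRD, MTA2 had 0.24, 0.21 and 0.22 in the arrays labelled shFAM60A and -0.24, -0.23 and -0.19 in the arrays labelled shControl. The difference of MTA2 was 0.44 ± 0.030 (adjusted p = 2.54e-05) and that of MTA1 0.19 ± 0.030 (adjusted p = 0.00136), with every probe set of both past the test. MTA3, with a single probe set, had 0.0079 (95% confidence interval -0.077 to 0.093) and did not pass.

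The remaining NuRD subunits moved apart. GATAD2A, one of the p66 proteins, had 0.19, 0.17 and 0.15 in the arrays labelled shFAM60A and -0.16, -0.16 and -0.19 in the arrays labelled shControl, a difference of 0.34 ± 0.030 (adjusted p = 8.82e-05). Its paralogue GATAD2B had -0.079, -0.13 and -0.16 in the arrays labelled shFAM60A and 0.12, 0.13 and 0.055 in the arrays labelled shControl, a difference of -0.22 ± 0.037 (adjusted p = 0.00198). Both pairs of groups were apart, in opposite order, although the probe sets of GATAD2A ran from -0.043 to 0.90. MBD3, the methyl-CpG-binding-domain subunit of NuRD that does not need methylated DNA, fell by 0.17 (adjusted p = 0.00346), while MBD2, its methyl-CpG-binding counterpart, had -0.077 (adjusted p = 0.0898).

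The WD40 subunits of the NCOR complex rose most among the members. TBL1X had 0.30, 0.31 and 0.36 in the arrays labelled shFAM60A, against -0.40, -0.33 and -0.37 in the arrays labelled shControl. TBL1XR1 had 0.32, 0.31 and 0.29 in the arrays labelled shFAM60A, against -0.37, -0.26 and -0.37 in the arrays labelled shControl. These exchange factors, which help to turn repression into activation at nuclear receptor targets, stood 1.61-fold and 1.55-fold above the arrays labelled shControl, or 0.68 ± 0.034 in log2 for TBL1X (adjusted p = 6.59e-06) and 0.64 ± 0.040 for TBL1XR1 (adjusted p = 1.58e-05). All 7 probe sets of TBL1X (0.46 to 0.79) and all 4 of TBL1XR1 (0.60 to 0.67) passed. HDAC3, the deacetylase of this complex, is described with the enzymes and did not pass.

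Both CoREST members, the scaffolds RCOR1 and RCOR3, fell. Their paralogue RCOR2, counted with the further subunits below, had -0.055 from 1 probe set and did not pass (adjusted p = 0.398). RCOR1 had -0.084, -0.21 and -0.23 in the arrays labelled shFAM60A and 0.14, 0.11 and 0.084 in the arrays labelled shControl, a difference of -0.29 ± 0.046 (adjusted p = 0.00165) with its 2 probe sets at -0.38 and -0.19. RCOR3 had -0.12, -0.045 and -0.11 in the arrays labelled shFAM60A and 0.11, 0.049 and 0.11 in the arrays labelled shControl, a difference of -0.18 ± 0.037 (adjusted p = 0.00486). The labels did not overlap in either gene, as in 53.2% of all genes, and 25.0% of all genes passed lower. Of the 8 probe sets of RCOR3, 4 passed lower and 4 did not pass, ranging from -0.52 to 0.0077.

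Across the complexes, 12 pairs of paralogous members were set side by side, with their values already known. In 3 pairs the members passed in opposite directions (SIN3A and SIN3B, SAP30L and SAP30, GATAD2A and GATAD2B). In 4 they passed in the same direction, higher for CHD4 and CHD3, MTA2 and MTA1, and TBL1X and TBL1XR1, and lower for RCOR1 and RCOR3. In the other 5 at least 1 member did not pass. These counts are a description: no such count over other gene pairs was made, and 19.8% of all genes passed higher and 25.0% lower.

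The catalytic core of these complexes did not pass the test. HDAC1 had -0.038, -0.0083 and -0.0050 in the arrays labelled shFAM60A and -0.016, 0.10 and 0.14 in the arrays labelled shControl, a difference of -0.091 with a 95% confidence interval of -0.20 to 0.015. Without the first array labelled shControl its difference was -0.14 and passed (adjusted p = 0.0215). The 3 probe sets of HDAC1 ran from -0.35 to 0.099, and 0 passed. HDAC2 had 0.052, -0.017 and 0.036 in the arrays labelled shFAM60A and 0.024, -0.033 and -0.12 in the arrays labelled shControl. Its difference was 0.066 (-0.040 to 0.17), with 1 of 2 probe sets past the test at 0.25 and the other at -0.12. With its probe set of largest variance alone (0.25) HDAC2 passed. HDAC3, read by 1 probe set, had 0.013 (-0.081 to 0.11). In these 3 genes the arrays of the labels overlapped. HDAC8, the class I enzyme that works outside these complexes, fell by 0.21 on the log2 scale (adjusted p = 0.00535), with 6 of 8 probe sets past the test.

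Among the 7 class II and IV enzymes, 3 rose, 1 fell and 3 did not pass, a share of 57.1% past the test that is near the 44.9% of all genes for so few members. HDAC6, the cytoplasmic tubulin deacetylase, had -0.14, -0.18 and -0.13 in the arrays labelled shFAM60A and 0.14, 0.15 and 0.16 in the arrays labelled shControl. Its difference was -0.30 ± 0.031 (adjusted p = 1.61e-04), and all 7 probe sets passed lower, from -0.44 to -0.15. HDAC5, a class IIa enzyme that shuttles between nucleus and cytoplasm, had 0.20, 0.32 and 0.28 in the arrays labelled shFAM60A and -0.32, -0.35 and -0.27 in the arrays labelled shControl, a difference of 0.58 ± 0.042 (adjusted p = 3.18e-05). That mean hides a spread of its 3 probe sets, at 1.56, 0.24 and -0.056. Of the other class IIa enzymes, HDAC9 rose by 0.17 (adjusted p = 0.00325) and HDAC4 by 0.15 (adjusted p = 0.00811). Of the 5 probe sets of HDAC9, 2 passed and 4 lay in the lowest level class. HDAC4 rested on 1 of 6 probe sets, at 0.67, and had 0.020 (adjusted p = 0.742) once x_at and s_at probe sets, which may share sequence with other transcripts, were left out. HDAC7 had 0.083 (adjusted p = 0.0602) and passed in 6 of 15 other settings, among them all 3 other scalings of the arrays, at 0.096 to 0.11. HDAC10 (-0.012) and HDAC11 (-0.093), a class IIb and the class IV enzyme, did not pass.

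Sirtuins, deacylases that consume NAD+, had 1 rise, 2 falls and 4 members that did not pass. Their share past the test, 42.9%, was near the 44.9% of all genes and is no result about sirtuins. SIRT4, a mitochondrial sirtuin, had -0.31, -0.46 and -0.28 in the arrays labelled shFAM60A and 0.28, 0.29 and 0.42 in the arrays labelled shControl. Its difference of -0.68 ± 0.060 (adjusted p = 8.15e-05), from 1 probe set, was the largest fall of the members, 1.60-fold. SIRT2, which deacetylates tubulin as HDAC6 does, had -0.28, -0.39 and -0.24 in the arrays labelled shFAM60A and 0.27, 0.22 and 0.23 in the arrays labelled shControl, a difference of -0.55 ± 0.046 (adjusted p = 6.23e-05). Its probe sets stood at -0.97, -0.69 and 0.023, the last without a call. SIRT7, a nucleolar sirtuin, rose by 0.13 (adjusted p = 0.0170), with 1 of its 2 probe sets past the test. It lost that call without replicate 2 (0.13) or replicate 3 (0.13) of the arrays labelled shFAM60A and without replicate 2 of those labelled shControl (0.11), as well as with its probe set of largest variance (0.14), with adjusted p from 0.0529 to 0.0567. SIRT1, the nuclear sirtuin nearest in role to the class I enzymes, had -0.13 (adjusted p = 0.165), with arrays labelled shFAM60A at -0.028, -0.23 and 0.019 and arrays labelled shControl at 0.11, 0.028 and 0.022. Of its 2 probe sets, 1 passed lower, at -0.19 (adjusted p = 0.00465), and without the other, which lay in the lowest level class, SIRT1 passed (adjusted p = 8.19e-04). Over the other settings its difference ran from -0.19 to -0.056, the smallest without replicate 2 of the arrays labelled shFAM60A. SIRT3 (0.022), SIRT5 (-0.039) and SIRT6 (-0.094) did not pass, although 1 of 3 probe sets of SIRT5 passed higher and 1 of 5 of SIRT6 lower. SIRT6 passed without the first array labelled shControl (-0.14, adjusted p = 0.0229).

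Probe sets tested singly gave the same mixed picture. Of the 177 probe sets of the members, 47 were higher, 50 lower and 80 did not pass, so that 54.8% passed, beside 41.4% of all probe sets. Of the 43 members with several probe sets, 13 (30.2%) had every probe set past the test in 1 direction, 7 higher and 6 lower, beside 20.9% of all genes with several. Calls in both directions occurred in 2 members (4.65%), SAP30L and FOXK2, beside 3.72% of such genes. The size of a change depended on the probe sets taken. The probe set of largest variance was chosen over all 6 arrays. That variance includes the difference between the labels, so the choice itself favours larger differences. With only that probe set, 15 of the 30 members that passed moved by more than 1.5 times, each of them further from 0. Among them were HDAC8 (-0.40), HDAC9 (0.39), SIN3B (-0.94), CHD3 (0.34), MBD3 (-0.25), GATAD2B (-0.41), RCOR3 (-0.50) and OGT (0.44). With the median of the probe sets HDAC5 had 0.25 and RCOR3 -0.11, and without x_at and s_at probe sets FOXK1 had 0.26, RBBP4 0.52 and RCOR3 -0.36, all of which still passed.

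**Figure D3:**
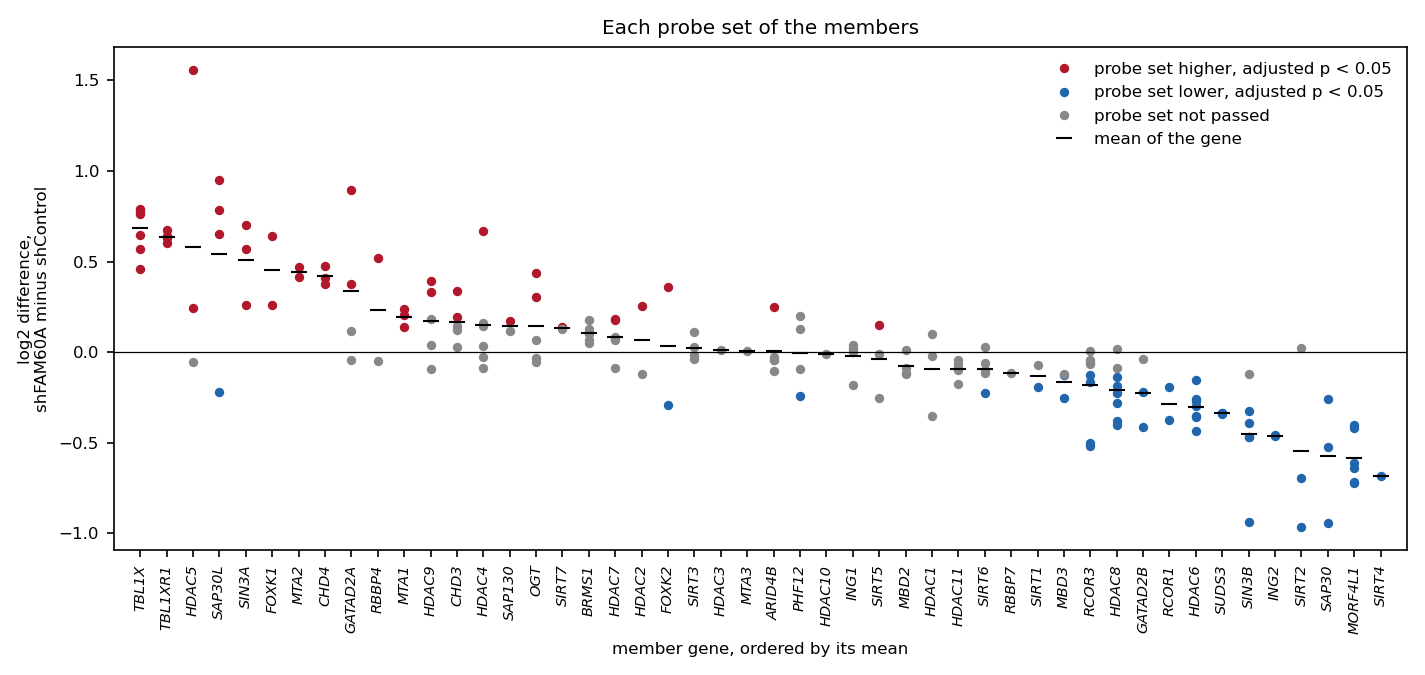
Log2 difference (arrays labelled shFAM60A minus arrays labelled shControl, vertical axis) of each probe set of the 48 members, ordered by the mean of the gene (black dash); red probe sets passed higher, blue lower, grey did not pass. TBL1X, MORF4L1 and HDAC6 have all probe sets on one side, whereas the 3 of HDAC5 run from -0.056 to 1.56.

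The share of probe sets that pass depends on the level of the probe set, which the deposited values give only as a class. The rounding of each value shows whether the log2 level before centring lay between 2 and 4, the lowest class, between 4 and 8, or from 8 up, the highest. Of the members' probe sets 8.47% lay in the lowest class, against 25.6% of all. From 2 to 4, 3 of 15 member probe sets passed (20.0%), against 10.6% of all probe sets of that class. From 4 to 8, 57 of 100 passed (57.0%, against 45.2%), and from 8 to 16, 36 of 59 passed (61.0%, against 64.9%). In the class of 8 to 16 the members' share was thus not above that of all probe sets, and what part the level has in the share of members that passed was not tested further.

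**Figure D4:**
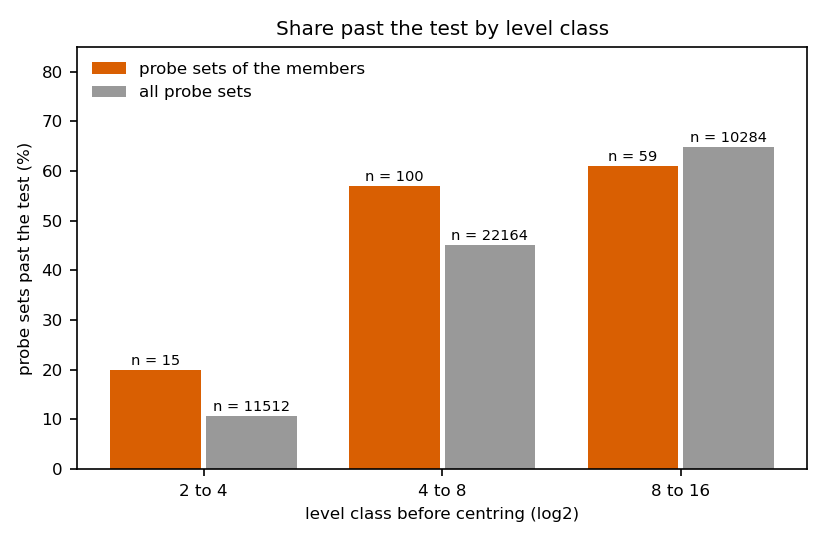
Percent of probe sets past the test (limma, adjusted p under 0.05) by level class before centring, for the members' probe sets (orange) and all probe sets (grey), with the number of probe sets above each bar. Member shares are 20.0%, 57.0% and 61.0%, against 10.6%, 45.2% and 64.9% of all probe sets.

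Genes around these complexes were counted from lists chosen beside the members. Of 22 further subunits and partners measured, 9 passed higher and 6 lower, around a median of 0.082 in log2. Their share past the test was 68.2%, beside 44.9% of all genes, with 40.9% higher and 27.3% lower, beside 19.8% and 25.0% of all genes. The largest rises were those of GSE1 (0.74), a partner of CoREST, and of TRERF1 (0.70) and MIDEAS (0.33), scaffolds of the mitotic deacetylase complex, whereas DNTTIP1 (-0.31), a further subunit of that complex, fell. MIER2 (-0.68), a scaffold that binds HDAC1 and HDAC2, and KDM5A (-0.38), a histone H3 demethylase tied to SIN3, also fell.

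On the opposing side, of 28 acetyltransferases and subunits of their complexes, 6 rose and 13 fell, with a median of -0.10. The share higher, 21.4%, was near the 19.8% of all genes, and the share lower was 46.4%, beside 25.0% of all genes. The coactivator CREBBP rose by 0.83 ± 0.048 (SE, adjusted p = 1.09e-05) and its paralogue EP300 by 0.57 ± 0.086 (adjusted p = 0.00127), with KAT6B at 0.46. The largest falls were those of ING3 (-0.82), a subunit of the TIP60 complex, BRPF3 (-0.51), a scaffold of the KAT7 complex, and HAT1 (-0.46), which acetylates newly made histone H4. Of 12 bromodomain readers of acetyl-lysine, 1 rose, CECR2 (0.28), and 6 fell, led by BAZ2B (-0.50), BRD7 (-0.41) and PHIP (-0.35), whose probe sets ran from -0.96 to 0.29. Their share past the test was 58.3%, beside 44.9% of all genes.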

How the data were processed

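Total RNA of 6 samples was labelled with biotin and hybridised to Affymetrix arrays, 1 per sample, per the labels' protocols. The authors deposited log2 expression values of 49395 probe sets with RMA named in the submitters' processing notes; neither the program and its version nor the log base is given in the sources used here, and base 2 was taken because RMA gives it. Deposited values have a median of 0 for every probe set across the arrays, so levels were lost apart from a class read from the rounding of single-precision values. That class came out right for 98.2%, 97.8% and 98.3% of probe sets made up at known levels from 2, 4 and 8 up. The made-up values were kept inside their class, so the error for probe sets near a class boundary was not measured. A class from 16 up held 775 further probe sets, a level too high for RMA, and 345 had no class.

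Symbols came from the platform annotation: 44988 probe sets with 1 symbol were used, and 1832 with several symbols and 2569 with none were left out. The 102 control probe sets, which overlap with the counts left out, were not used either. Entrez identifiers, looked up in the RefSeq table (GRCh38.p14), changed 0 symbols. A gene was the mean of its probe sets. The comparison used limma 3.58.1 (lmFit, eBayes; R 4.3.3), two-sided, over all 6 arrays without further normalization, with Benjamini-Hochberg adjustment over all genes (or all probe sets) and a threshold of 0.05. The fit was tested on simulated data, with no outcome of that test reported here. Precision is limited by the 3 arrays per group. Groups came from the sample titles. Every member, SINHCAF, and the 3 largest rises and falls past the threshold of each further list were named. Of the other genes of those further lists, a value was given for RCOR2 alone. Members and lists were chosen with earlier results of these data known, and no count over them is independent evidence. Of 150 listed genes, 10 had no probe set with 1 symbol and were not analysed here. Other scalings, probe set rules, filters, a replicate block, robust eBayes and the omission of each array were tried.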

Additional observations from a re-analysis of the deposited data

How the results depend on the processing

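Of the 30 members that passed, 27 kept their call and direction in each of the 15 other settings in which they could be fitted, 3 (HDAC4, SIRT7 and OGT) lost it in at least 1, and 0 turned direction. Of the 18 that did not pass, 8 passed in at least 1 setting. The median over the members, 0.0073, was 0.024 after another quantile normalization, 0.033 after cyclic loess, and between -0.0067 and 0.020 when 1 array was left out, the lowest without the first array labelled shFAM60A; the cause was not tested. Counts of members past the test ran from 28 to 34 and those of all genes from 6999 to 8412. The 3 arrays of a label share numbers with those of the other, but same-numbered arrays deviated together with correlations of 0.16, 0.059 and 0.078, so the numbers were not taken as pairs, although each array correlated best with its own number. With the replicate block 31 members and 8170 genes passed, RBBP7 among them (adjusted p = 0.0419).

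Changes of sign concerned members near 0 that passed in neither setting. With quantile normalization, HDAC10 had 0.00215 and PHF12 0.011; with cyclic loess, HDAC10 0.016, ING1 0.0047 and PHF12 0.019; with array medians subtracted, HDAC10 0.0011 and PHF12 0.011. With the probe set of largest variance ARID4B had -0.10 and PHF12 0.20, with the median of probe sets ARID4B -0.010, and without x_at and s_at probe sets ARID4B -0.071, ING1 0.026 and PHF12 0.029. Leaving out 1 array at a time gave HDAC3 -0.0099 to 0.042, HDAC10 -0.036 to 0.018, ARID4B -0.048 to 0.041, ING1 -0.064 to 0.0073, PHF12 -0.017 to 0.0092 and MTA3 -0.014 to 0.020. The cause was not tested. Dim probe sets and 3 arrays per group limit what could be detected.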
